A study of Mus musculus with 12 samples.

Results

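A set of 10 genes of extracellular nucleotide and adenosine sensing was followed in RNA-seq of bone marrow-derived dendritic cells (BMDCs), namely the ATP-gated channels P2rx4 and P2rx7, the nucleotide receptors P2ry2, P2ry6, P2ry13 and P2ry14, the adenosine receptors Adora2a, Adora2b and Adora3, and the ectonucleotidase Entpd1. The 10 genes were selected by symbol, with earlier results of these data known, and all 10 were found among the 55335 genes quantified in every library and passed the filter on low counts. The study asked how loss of the chromatin-folding factor CTCF alters gene expression in BMDCs before and after an inflammatory stimulus, and it comprised 12 libraries in 4 groups of 3 replicates. WT cells came from bone marrow of C57BL/6 mice carrying CreER, a Cre recombinase activated by tamoxifen and expressed from the broadly active Rosa26 locus, and KO cells came from CreER;CTCF fl/fl mice, in which the same recombinase removes both floxed Ctcf alleles. All cells were grown from marrow with GM-CSF for 6 days, with 4-hydroxytamoxifen given for the deletion on the first day alone, and the sources leave unclear whether WT cultures also received it. WTLPS and KOLPS cells were in addition stimulated with LPS, a bacterial cell wall component that activates TLR4, at 100 ng/ml for 3 h. Floating cells positive for CD11c, the product of Itgax, were collected with beads in all groups, from mice of both sexes with CreER littermates as the WT source. The replicates are described as biological, but whether each was a separate mouse is not given in the sources used here, so the p-values measure the spread between these libraries.

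ATP and other nucleotides leave stressed or damaged cells and act on neighbours as danger signals. P2X receptors are cation channels opened by ATP, and P2Y receptors are G protein-coupled receptors for ATP, ADP, UTP, UDP or UDP-sugars. CD39, the product of Entpd1, degrades ATP and ADP to AMP outside the cell, CD73 converts AMP to adenosine, and adenosine then acts on its own receptors, of which the Adora2a and Adora2b products raise cyclic AMP and that of Adora3 lowers it. In myeloid cells, P2RX7 is best known for opening the way to inflammasome activation, and the Adora2a receptor for restraining inflammatory cytokine production.

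Total expected counts, the estimated reads per gene summed over genes, were 12769773 to 16586334 per library. Genes for ribosomal RNA held a share of 5.165% in WTLPS replicate 2 and of 0.383% to 1.185% elsewhere. Ctcf itself was present at 1051, 987 and 975 normalized counts in WT and 570, 562 and 516 in KO, and at 886, 817 and 745 in WTLPS and 563, 530 and 526 in KOLPS, so that every KO library lay below every WT library at the same stimulus. Normalized counts put every library on a shared depth, the mean effective size of the 12, and the Ctcf value sums all exons, deleted or not. All 11 dendritic cell markers examined, among them Itgax, Cd74 and H2-Ab1, were detected at 10 or more counts on average, and in KO against WT 2 of them were called higher and 3 lower. Their TPM summed to 10700 to 11400 in WT and 8270 to 8560 in KO, a sum made up mostly of Cd74 (5132 ± 188 in WT, 4252 ± 124 in KO) and H2-Ab1 (1743 ± 94.2 and 923 ± 29.5), whereas Itgax was at 366 ± 9.2 TPM in WT and 606 ± 7.01 in KO. The summed TPM of 11 macrophage and monocyte markers was 1400 to 1490 in WT and 1750 to 1820 in KO, that of 9 neutrophil markers was 378 to 400 in WT and 194 to 226 in KO, and that of 5 erythroid and platelet markers was 142 to 150 in WT and 63.9 to 74.4 in KO. The T, B and NK cell lists each summed to at most 4.12 TPM in any library. TPM is a transcript level corrected for gene length that sums to the same total in each library. In such bulk samples fewer cells of a type and less RNA per cell cannot be told apart, and the part of these marker differences in the results below was not tested.

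In length-corrected levels, the channel P2rx4 led the unstimulated cells and the UDP-glucose receptor P2ry14 led the LPS-stimulated WT cells. In WT, P2rx4 stood at 91.1 ± 1.93 TPM (mean ± SD, n = 3), above P2ry6 (49.2 ± 3.15), P2ry14 (48.3 ± 2.55) and Entpd1 (45.5 ± 4.15), which overlapped from each to the next in this order. P2rx7 (18.3 TPM), Adora2a (12 TPM) and Adora2b (9.54 TPM) followed, each apart from the next, and then P2ry13 (6.98 TPM) and P2ry2 (5.67 TPM), which overlapped. Adora3 was the lowest in WT, at 1.46 ± 0.282 TPM. In WTLPS the order became P2ry14 at 102 ± 17.1 TPM, Adora2a at 76.3 ± 9.19 TPM and P2rx4 at 46.5 ± 1.61 TPM, with no overlap among these 3. In KO, P2rx4 (138 ± 2.85 TPM) and Entpd1 (82.0 ± 6.15 TPM) led, and Adora3 (13.9 ± 0.811 TPM) reached the level of P2rx7 (14.7 TPM) and P2ry2 (13.8 TPM), with overlapping libraries. In KOLPS, P2rx4 (63.4 ± 5.84 TPM) stood above P2ry14 (53.7 ± 2.91 TPM) and Adora2a (51.8 ± 5.95 TPM), which overlapped, and Adora3 was again the lowest at 1.17 ± 0.16 TPM.

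**Figure D1:**
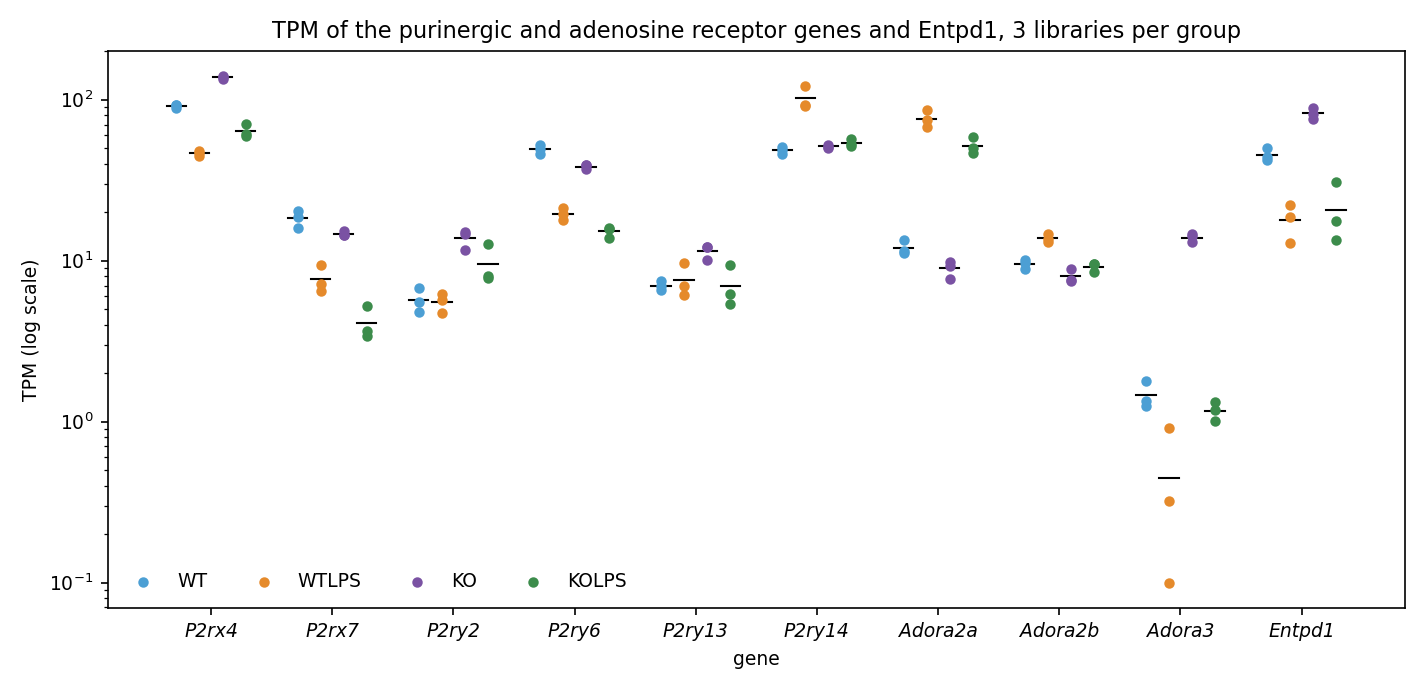
TPM of each gene (log scale) in the 3 libraries of WT, WTLPS, KO and KOLPS, with a bar at each group mean. Adora3 spans the widest range, from 0.443 TPM on average in WTLPS to 13.9 TPM in KO. Adora2a lies higher, and P2rx4, P2rx7, P2ry6 and Entpd1 lie lower, in every LPS-stimulated library than in every unstimulated one.

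Several of the genes sit side by side on their chromosomes. In the mm10 build, P2rx7 (chr5:122643911-122691432) and P2rx4 (chr5:122707544-122729738) lie on the plus strand with 16112 bases between them. P2ry6 (chr7:100937630-100974649) and P2ry2 (chr7:100996568-101012866) lie on the minus strand, 21919 bases apart. P2ry14 (chr3:59113855-59153618) and P2ry13 (chr3:59207892-59210882) lie on the minus strand, 54274 bases apart, both inside the plus-strand gene Med12l, with which they share no exon sequence. Adora3 (chr3:105870858-105908926, plus strand) is on the same chromosome but far away, and it overlaps Tmigd3 on the same strand over 779 exon bases, where reads cannot be told apart with certainty, although Tmigd3 was credited with a mean of only 0.7 counts. Adora2a (chr10:75316877-75334784), Adora2b (chr11:62248984-62266453) and Entpd1 (chr19:40612366-40741602) stand alone, all on the plus strand.

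The sequences before the annotated starts were read for 8 of the 10 genes, which have 14 RefSeq start sites (GRCm38.p6, the assembly of mm10). Those without an entry were Adora2a and P2ry6. Shown are the windows of the 3 genes that held a match to the AP-1 site, Adora3, P2ry14 and P2rx7, chosen after the matches were known, and of P2ry13 and P2rx4, which adjoin P2ry14 and P2rx7 and held none, as the 250 bases upstream of the start, 5′ to 3′ on the strand of the gene. Capitals mark the AP-1 site TGANTCA, the element bound by Fos and Jun family dimers. The 5 windows are chr3:105904171-105904420 (plus strand) for Adora3, chr3:59153493-59153742 (minus strand) for the most upstream start of P2ry14, chr3:59210883-59211132 (minus strand) for P2ry13, chr5:122643677-122643926 (plus strand) for the most upstream start of P2rx7, and chr5:122707294-122707543 (plus strand) for P2rx4.
Adora3: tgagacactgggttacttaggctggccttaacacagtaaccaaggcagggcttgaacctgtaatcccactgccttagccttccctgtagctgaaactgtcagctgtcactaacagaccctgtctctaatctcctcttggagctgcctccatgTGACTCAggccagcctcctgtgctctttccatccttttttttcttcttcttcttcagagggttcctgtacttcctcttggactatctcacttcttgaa
P2ry14: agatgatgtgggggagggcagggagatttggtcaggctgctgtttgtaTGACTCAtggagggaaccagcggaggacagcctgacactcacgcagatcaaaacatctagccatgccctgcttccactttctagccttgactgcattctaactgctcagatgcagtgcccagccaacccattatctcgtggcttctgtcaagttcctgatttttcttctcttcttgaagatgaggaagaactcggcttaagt
P2ry13: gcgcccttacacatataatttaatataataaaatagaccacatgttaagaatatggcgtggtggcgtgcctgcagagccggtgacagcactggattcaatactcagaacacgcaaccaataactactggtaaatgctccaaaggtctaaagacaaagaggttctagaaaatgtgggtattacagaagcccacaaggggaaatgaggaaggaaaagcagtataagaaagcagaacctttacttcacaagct
P2rx7: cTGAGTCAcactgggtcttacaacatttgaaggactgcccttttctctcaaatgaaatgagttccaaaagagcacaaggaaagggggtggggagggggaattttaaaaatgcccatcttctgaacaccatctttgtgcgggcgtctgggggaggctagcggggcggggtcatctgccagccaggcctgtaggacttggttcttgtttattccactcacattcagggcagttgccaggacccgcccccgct
P2rx4: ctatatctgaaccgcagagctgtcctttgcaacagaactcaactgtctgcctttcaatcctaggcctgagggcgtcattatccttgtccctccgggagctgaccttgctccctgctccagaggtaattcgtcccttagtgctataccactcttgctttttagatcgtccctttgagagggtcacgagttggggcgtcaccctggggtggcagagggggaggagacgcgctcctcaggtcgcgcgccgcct
The AP-1 letters began 98 bases before the start of Adora3, 202 bases before that of P2ry14 and 249 bases before that of P2rx7, and they also occurred 144 bases before the second P2ry14 start. The window of 300 bases, 250 before and 50 after the start, held them in 7.81% of all 32851 promoters. On both strands, the STAT dimer site TTCNNNGAA (8.3% of all promoters), an NF-kB site, GGG and TTTCC with NN between them (1.63%), the cyclic AMP response element TGACGTCA (1.79%) and a CTCF core, CCANNAG and GGC with NN between them (2.43%) did not occur in any of the 14 windows. These are matches of letters and describe the sequence alone.

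The response of WT BMDCs to LPS was examined first. Adora2a, whose receptor signals through cyclic AMP, rose 8.83-fold, and P2ry14 (2.94-fold), Adora2b (2.08-fold) and P2ry13 (1.54-fold) also rose. Adora3 (3.06-fold lower), P2rx7 (2.11-fold), Entpd1 (1.74-fold), P2ry6 (1.70-fold) and P2rx4 (1.28-fold) fell, and P2ry2 did not pass the test. With edgeR's quasi-likelihood test and an adjusted p under 0.05 over 14008 genes, 4 of the 10 genes were higher and 5 lower, where 30.0% and 30.2% of all genes tested were called in these directions and 60.2% in either. With the study's fold cutoff of 2 in addition, 3 were higher and 2 lower, beside 12.6% and 9.99% of all genes (22.6% in either direction). The median log2 fold change was -0.06 over the 10 genes and -0.018 over all genes tested.

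Adora2a stood at 228, 248 and 282 normalized counts in WT and at 1953, 2313 and 2428 in WTLPS. The lowest LPS-stimulated library thus held several times the counts of the highest unstimulated one, and the log2 fold change was 3.14 ± 0.115 (SE, adjusted p = 1.3e-11, edgeR). P2ry14, whose receptor senses UDP-glucose, went from 759, 797 and 743 to 2641, 2155 and 1977 normalized counts (log2 fold change 1.56, adjusted p = 4.3e-09, edgeR). Adora2b, the receptor of lower adenosine affinity, went from 145, 164 and 175 to 310, 352 and 346 normalized counts. Its groups did not overlap either (log2 fold change 1.06, adjusted p = 4.9e-07, edgeR). P2ry13, an ADP receptor, was at 164, 158 and 182 normalized counts in WT and 324, 223 and 235 in WTLPS, with replicate 1 of WTLPS well above the other two. Its log2 fold change of 0.63 (adjusted p = 0.012, edgeR) lost the call without WT replicate 1 (0.53), WT replicate 2 (0.51) or WTLPS replicate 1 (0.45).

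Among the genes that fell, P2rx7 went from 489, 543 and 570 normalized counts to 294, 235 and 235 (log2 fold change -1.08, adjusted p = 2.5e-07, edgeR). P2rx4, encoding a channel found largely on endolysosomes, moved less, from 1372, 1431 and 1388 normalized counts to 1094, 1151 and 1030 (log2 fold change -0.36, adjusted p = 0.00032, edgeR). In both channel genes every stimulated library lay below every unstimulated one. How many of all genes tested separate in this way, here or in the comparisons below, was not counted. P2ry6, a receptor for UDP, went from 885, 862 and 813 normalized counts to 441, 570 and 490 (log2 fold change -0.77, adjusted p = 8.2e-06, edgeR). Entpd1 went from 1105, 1146 and 1189 normalized counts to 804, 643 and 533 (log2 fold change -0.80, adjusted p = 0.00029, edgeR). Adora3 was scarce in WT, at 26.6, 29.4 and 39.8 normalized counts, and scarcer in WTLPS, at 9.44, 3.25 and 18.1. No WTLPS library reached the lowest WT library, and the log2 fold change of -1.62 (adjusted p = 0.0012, edgeR) became -2.39 without WTLPS replicate 3 and -1.16 without WTLPS replicate 2. P2ry2, a receptor for ATP and UTP, had 131, 132 and 167 normalized counts in WT and 177, 161 and 170 in WTLPS, which overlapped (log2 fold change 0.24, 95% interval -0.03 to 0.51).

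These fold changes are relative to the typical gene, since TMM normalization places the median gene near 0. Scaled to library totals, the median of all genes moved to -0.53 in WTLPS against WT and to -0.40 in KOLPS against KO, with 2031 genes higher and 8413 lower in WT in place of 4209 and 4224, and with 2873 higher and 7317 lower in KO in place of 4704 and 4752. Under that scaling P2ry13 in WT (log2 fold change 0.12) and P2ry14 in KO (0.10) no longer passed as raised by LPS, and P2ry2 in WT turned to -0.27, still without a call, while P2ry2 (-0.42) and P2ry13 (-0.64) in KO passed as lowered by LPS. In limma on log2(TPM + 1), the LPS changes of P2ry13 in WT, P2ry14 in KO and P2ry2 in WT were 0.08, 0.07 and -0.02. Adora2b in KO was at 0.18 (adjusted p = 0.11, limma) in place of 0.65. P2rx4 was called lower with LPS in all 16 alternatives, but the size of its fall depended on the setting. Its log2 fold change ran from -0.97 to -0.32 in WT and from -1.12 to -0.62 in KO.

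**Figure D2:**
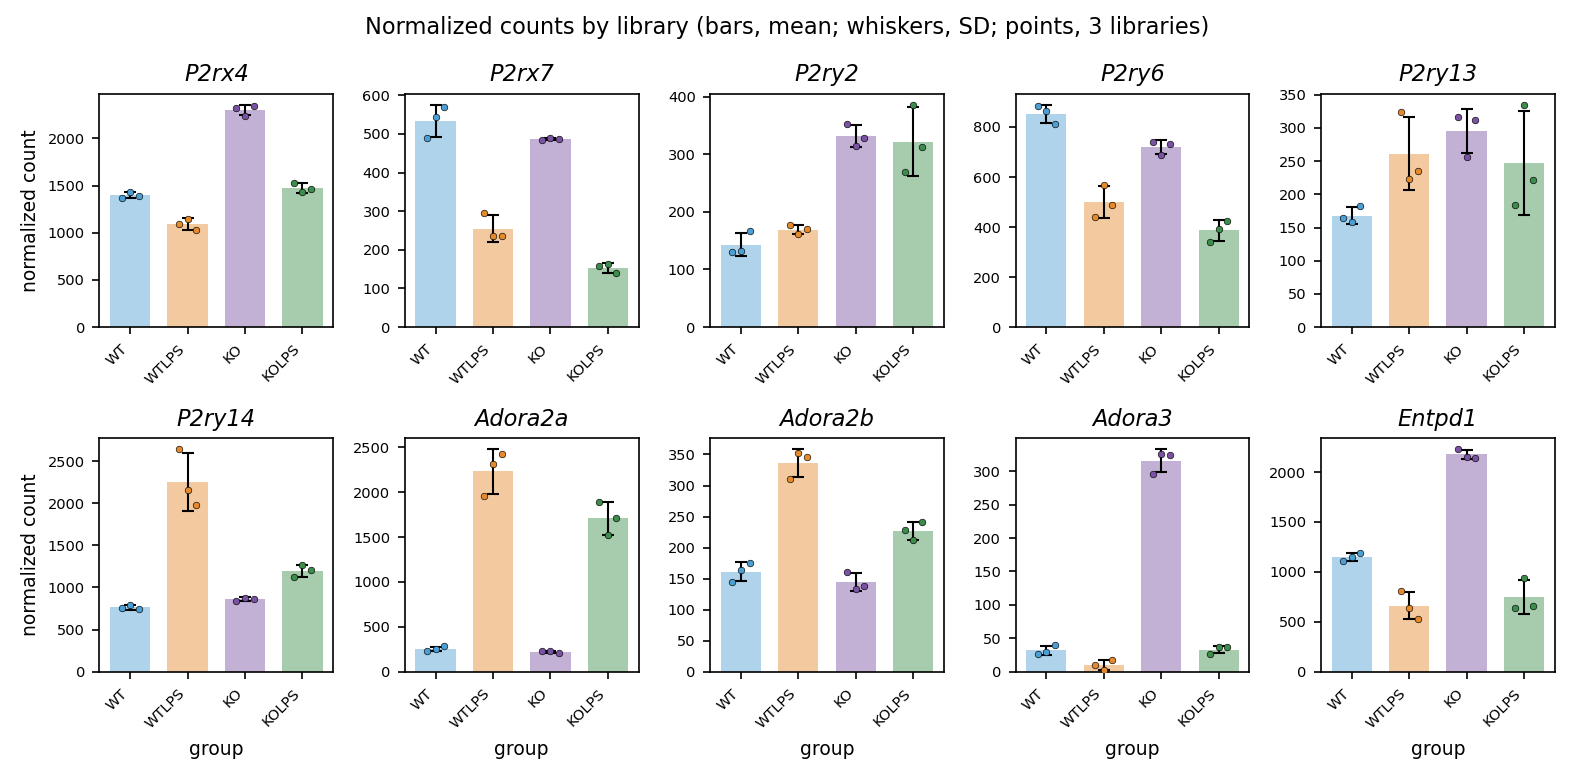
Normalized counts of each gene, as the mean (bar), SD (whisker) and 3 libraries (points) of the groups on the x axis. Adora3 reaches 316 in KO and stays at or under 33.2 on average in the other groups, and P2ry14 is highest in WTLPS.

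The same stimulus was then followed in CTCF-deficient cells. Adora2a again rose, 7.73-fold, Adora2b rose 1.57-fold and P2ry14 rose 1.39-fold. Adora3 fell most, 9.5-fold, followed by P2rx7 (3.17-fold lower), Entpd1 (2.92-fold), P2ry6 (1.86-fold) and P2rx4 (1.56-fold). Thus 3 genes were higher and 5 lower in KOLPS than in KO, where 33.6% and 33.9% of all genes were called (67.5% in either direction), and with a fold cutoff of 2 there were 1 and 3, beside 15.1% and 13% (28.1%). The median log2 fold change was -0.45 over the 10 genes and -0.024 over all genes tested.

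Adora2a went from 226, 232 and 204 normalized counts in KO to 1892, 1520 and 1712 in KOLPS (log2 fold change 2.95, adjusted p = 2.6e-11, edgeR). Adora2b went from 161, 134 and 138 to 229, 212 and 241 normalized counts (log2 fold change 0.65, adjusted p = 7.9e-05, edgeR). P2ry14 went from 841, 880 and 867 to 1119, 1265 and 1210 normalized counts (log2 fold change 0.47, adjusted p = 0.00055, edgeR). In all 3 genes the stimulated libraries were above the unstimulated ones without overlap. Adora3 fell from 296, 326 and 324 normalized counts to 26.9, 36.3 and 36.3 (log2 fold change -3.25, adjusted p = 1.2e-08, edgeR), which brought it back to the range of unstimulated WT cells. Entpd1 fell from 2229, 2154 and 2145 normalized counts to 640, 943 and 657 (log2 fold change -1.55, adjusted p = 3.7e-07, edgeR), with replicate 2 of KOLPS above the other two. P2rx7 fell from 483, 488 and 487 normalized counts to 158, 164 and 139 (log2 fold change -1.66, adjusted p = 3.2e-09, edgeR). P2rx4, at 2318, 2242 and 2348 normalized counts in KO, was at 1530, 1429 and 1468 in KOLPS (log2 fold change -0.64, adjusted p = 7.7e-07, edgeR). P2ry6 went from 742, 688 and 732 to 342, 392 and 426 normalized counts (log2 fold change -0.90, adjusted p = 1.7e-06, edgeR). These genes showed no overlap between the groups. P2ry2 (353, 315 and 328 normalized counts in KO, 269, 386 and 312 in KOLPS) and P2ry13 (316, 256 and 312 in KO, 184, 335 and 222 in KOLPS) overlapped, with log2 fold changes of -0.05 (95% interval -0.28 to 0.19) and -0.26 (-0.62 to 0.10). Replicate 2 of KOLPS was the highest of its group in both, and without it P2ry13 passed as lower at -0.54 (adjusted p = 0.0055, edgeR).

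**Figure D3:**
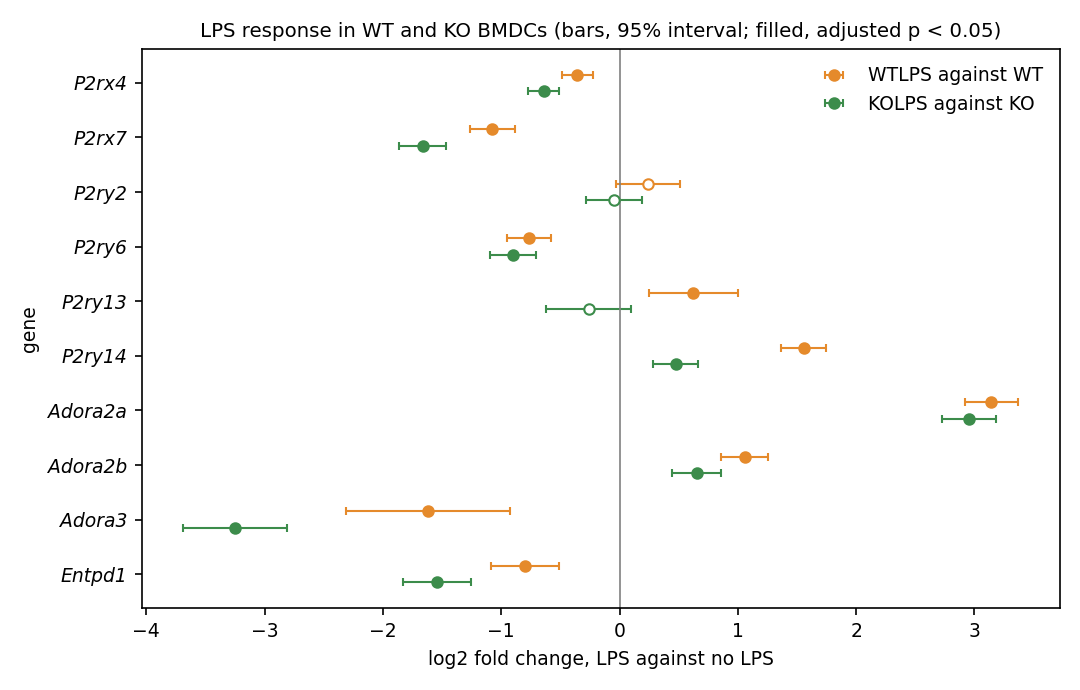
Log2 fold change of each gene on LPS in WT (orange) and in KO (green), with bars of the 95% interval and filled points where the adjusted p was under 0.05. In all 10 genes the point for KO lies below that for WT, and the bars lie farthest apart for P2ry14.

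Whether the LPS response differed between genotypes was tested by the interaction, the log2 fold change in KO minus that in WT, which shares all its libraries with both responses. P2ry14 had the clearest difference, -1.08 ± 0.135 (SE, adjusted p = 9.7e-05, edgeR), with a rise of 1.56 in WT and 0.47 in KO. The interaction also passed for Adora3 (-1.63, adjusted p = 0.028), Entpd1 (-0.74, adjusted p = 0.023), P2rx7 (-0.59, adjusted p = 0.011), P2ry13 (-0.89, adjusted p = 0.035) and P2rx4 (-0.29, adjusted p = 0.047) in edgeR. Thus 6 of the 10 were lower and 0 higher, where 8.75% and 8.70% of all genes were called (17.4% in either direction), and the median interaction was -0.50 over the 10 genes and -0.016 over all genes. Adora2b (-0.41, adjusted p = 0.073), P2ry2 (-0.28, adjusted p = 0.33), Adora2a (-0.19, adjusted p = 0.45) and P2ry6 (-0.13, adjusted p = 0.56) did not pass in edgeR, and for Adora2a the 95% interval of the difference was -0.50 to 0.12.

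The P2ry14 interaction passed in all 21 settings tried, and that of P2rx7 in 18 of them, losing the call without WT replicate 1 (-0.46, adjusted p = 0.055) and in both limma fits. The other 4 were less firm, with P2rx4 called in 4 of 21 settings, P2ry13 in 9 of 21, Entpd1 in 12 of 21 and Adora3 in 13 of the 20 that tested it. Among the removals of a library, P2rx4 kept the call without WTLPS replicate 3 or KOLPS replicate 2 and lost it without any of the others. P2ry13 lost it when WT replicate 1, 2 or 3, WTLPS replicate 1, KO replicate 1 or 3, or KOLPS replicate 1 or 3 was left out. Entpd1 lost it when WT replicate 1, 2 or 3, KO replicate 1 or 3, or KOLPS replicate 1 or 3 was left out. Adora3 lost it when WT replicate 1 or 2, KO replicate 2 or 3, KOLPS replicate 1 or WTLPS replicate 3 was left out, and its value without the last was -0.86 in place of -1.63.

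Loss of CTCF was then examined in unstimulated cells. Adora3 was 9.84-fold higher in KO than in WT, P2ry2 2.31-fold, Entpd1 1.90-fold, P2ry13 1.76-fold and P2rx4 1.65-fold. P2ry6 was 1.18-fold lower, and P2rx7, P2ry14, Adora2a and Adora2b did not pass the test. Of the 10 genes 5 were higher and 1 lower, where 22.2% and 22.4% of all genes were called (44.6% in either direction), and with the study's fold cutoff of 1.3 there were 5 and 0, beside 17.3% and 17.2% (34.5%). The median log2 fold change was 0.45 over the 10 genes and -0.014 over all genes.

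Adora3 stood out, with 26.6, 29.4 and 39.8 normalized counts in WT and 296, 326 and 324 in KO (log2 fold change 3.30 ± 0.217 SE, adjusted p = 2.2e-08, edgeR). The lowest KO library was far above the highest WT library. The A3 receptor is best known from mast cells and eosinophils, and markers of these cells were therefore examined beside it. Of 9 mast cell and basophil markers, Cpa3, Fcer1a, Ms4a2, Tpsab1 and Tpsb2 were under 0.5 TPM in every library, and the summed level was 4.9 to 5.69 TPM in WT and 5.06 to 5.58 TPM in KO. That sum held members at different levels, with Gata2 at 0.563 ± 0.18 TPM in WT and 2.87 ± 0.446 in KO and Kit at 3.33 ± 0.246 and 1.22 ± 0.283, and of the 3 tested 1 was called higher and 1 lower. Of 5 eosinophil markers, Ccr3, Epx and Il5ra were under 0.5 TPM in every library. The summed level, mostly of Siglecf, was 12.6 to 15.1 TPM in WT and 19.8 to 24.6 TPM in KO. Of the 3 eosinophil markers tested, 2 were called higher in KO than in WT and 0 lower. Only 1 of the 5 had 10 or more counts on average. Siglecf was at 11.4 ± 1.34 TPM in WT and 21.5 ± 2.31 in KO, whereas Prg2 was at 2.05 ± 0.0723 and 0.783 ± 0.64. Whether these marker differences bear on Adora3 was not tested.

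Entpd1 went from 1105, 1146 and 1189 normalized counts in WT to 2229, 2154 and 2145 in KO (log2 fold change 0.92, adjusted p = 1e-04, edgeR). P2rx4 went from 1372, 1431 and 1388 to 2318, 2242 and 2348 normalized counts (log2 fold change 0.72, adjusted p = 5.6e-07, edgeR). P2ry2 went from 131, 132 and 167 to 353, 315 and 328 normalized counts (log2 fold change 1.21, adjusted p = 3e-06, edgeR), and P2ry13 from 164, 158 and 182 to 316, 256 and 312 (log2 fold change 0.81, adjusted p = 0.0028, edgeR). In these 4 genes all KO libraries were above all WT libraries. The same held for P2ry14, which did not pass the test, so this separation does not mark the 4 out. How common it is over all genes was not counted. The monocyte markers Ly6c2 (70.2 ± 3.62 TPM in WT, 224 ± 3.67 in KO) and Ccr2 (181 ± 16.3 TPM in WT, 386 ± 12.7 in KO) were higher in the same libraries. The macrophage marker Adgre1 went the other way (99.2 ± 6.44 TPM in WT, 50.4 ± 3.73 in KO). Of the 11 macrophage and monocyte markers 5 were called higher and 4 lower, and whether these differences moved the receptor genes was not tested. P2ry6 went from 885, 862 and 813 to 742, 688 and 732 normalized counts (log2 fold change -0.24, adjusted p = 0.047, edgeR), a call that was lost when any library but WT replicate 3 was left out, with an adjusted p of up to 0.15. P2rx7 (log2 fold change -0.14, 95% interval -0.31 to 0.04), P2ry14 (0.17, -0.02 to 0.36), Adora2a (-0.20, -0.43 to 0.04) and Adora2b (-0.16, -0.37 to 0.05) had intervals that spanned 0. The KO libraries of P2rx7 lay just below and those of P2ry14 just above all WT libraries, and each of 3 genes passed in some alternative. P2rx7 passed as lower with library totals (-0.24, adjusted p = 0.044, edgeR), P2ry14 as higher when the 6 libraries were fitted alone (0.17, adjusted p = 0.0045, edgeR), and Adora2a as lower in limma on log2(TPM + 1) (-0.39, adjusted p = 0.029) and log2(TPM + 0.1) (-0.42, adjusted p = 0.026).

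The genotypes were also compared after LPS. Adora3 (3.17-fold), P2ry2 (1.90-fold) and P2rx4 (1.35-fold) were higher in KOLPS than in WTLPS, and P2ry14 (1.88-fold), P2rx7 (1.65-fold), Adora2b (1.48-fold), Adora2a (1.31-fold) and P2ry6 (1.3-fold) were lower. That is 3 higher and 5 lower, where 21.4% and 23.3% of all genes were called (44.7% in either direction), and 2 and 2 with the study's fold cutoff of 1.5, beside 12.5% and 12.5% (25.0%). The median log2 fold change was -0.22 over the 10 genes and -0.035 over all genes.

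P2ry14 was at 2641, 2155 and 1977 normalized counts in WTLPS and 1119, 1265 and 1210 in KOLPS (log2 fold change -0.91, adjusted p = 2.6e-06, edgeR), so that the lowest WTLPS library was above the highest KOLPS library. P2rx7, at 294, 235 and 235 normalized counts in WTLPS and 158, 164 and 139 in KOLPS, was likewise apart (log2 fold change -0.72, adjusted p = 8.1e-05, edgeR). The log2 fold changes of the adenosine receptors that raise cyclic AMP were -0.39 for Adora2a (adjusted p = 0.007, edgeR) and -0.56 for Adora2b (adjusted p = 0.00036, edgeR). P2ry6 was at -0.38 (adjusted p = 0.0074, edgeR), and it missed the call at -0.34 (adjusted p = 0.068) when the 6 libraries were fitted alone. P2rx4 (log2 fold change 0.44, adjusted p = 9.6e-05), P2ry2 (0.93, adjusted p = 5.3e-05) and Adora3 (1.67, adjusted p = 0.0018) were higher in edgeR without overlap. The Adora3 value became 2.43 without WTLPS replicate 3 and 1.21 without WTLPS replicate 2, and it stayed called in both cases. Entpd1, at 804, 643 and 533 normalized counts in WTLPS and 640, 943 and 657 in KOLPS, overlapped (log2 fold change 0.18, 95% interval -0.11 to 0.47), as did P2ry13 (-0.07, -0.45 to 0.30). These comparisons share their libraries with those above and are not separate evidence.

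**Figure D4:**
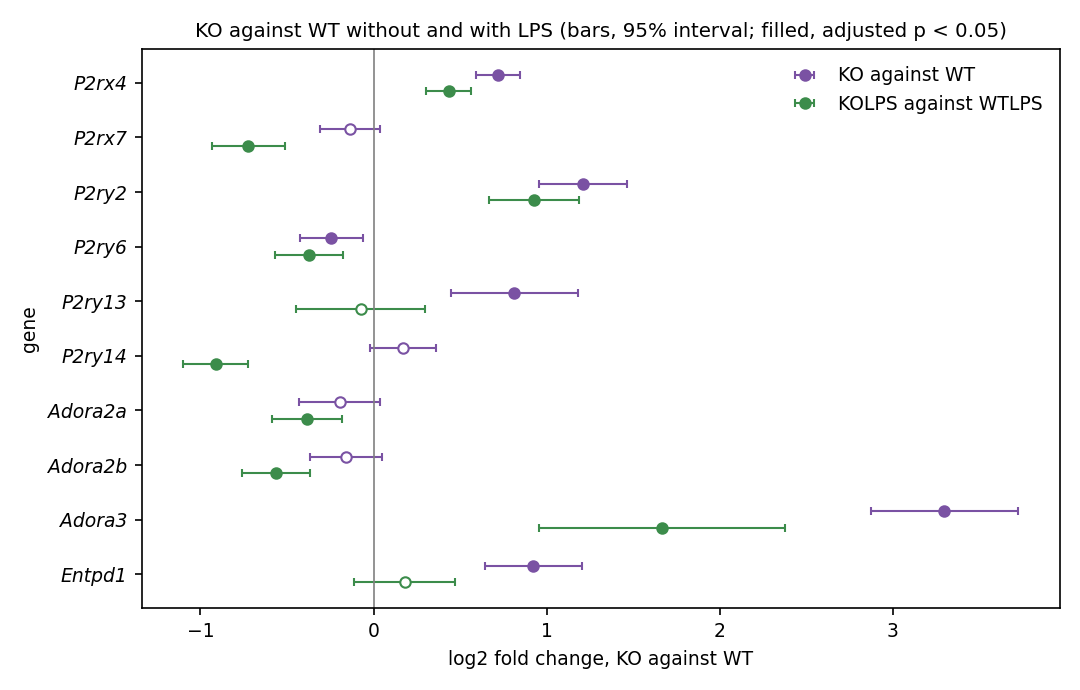
Log2 fold change of each gene in KO against WT without LPS (purple) and with LPS (green), with bars of the 95% interval and filled points where the adjusted p was under 0.05. Adora3 lies at 3.30 without and 1.67 with LPS, and P2ry14 and P2rx7 lie near 0 without LPS and below it with LPS.

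The makeup of each receptor class followed from these levels and is given as a description. Adora2a made up 50.2% to 53.1% of the summed TPM of the 3 adenosine receptor genes in WT and 26.0% to 30.9% in KO, where Adora3 exceeded it. With LPS its share was 83.5% to 84.7% in WT and 82.1% to 84.7% in KO, so the genotypes differed in the unstimulated libraries and overlapped in the stimulated ones. The sum itself went from 23.0 ± 2.04 TPM in WT to 90.4 ± 10.3 TPM in WTLPS, and from 30.9 ± 1.19 TPM in KO to 62.1 ± 6.31 TPM in KOLPS. Among the 4 P2Y genes, P2ry14 held 42.8% to 45.5% of the summed TPM in WT and 43.3% to 47.1% in KO, and 73.3% to 78.6% in WTLPS against 60.2% to 65.4% in KOLPS. The TPM of P2rx4 was 4.57 to 5.76 times that of P2rx7 in WT, 5.11 to 6.9 times in WTLPS, 9.08 to 9.72 times in KO and 11.3 to 19.2 times in KOLPS. The 2 P2X genes summed to 109 ± 2.73 TPM in WT, 54.2 ± 2.99 in WTLPS, 152 ± 2.55 in KO and 67.6 ± 5.37 in KOLPS. Summed TPM is tied to a fixed total. In limma on log2(TPM + 1), the median LPS change of all genes was -0.44 in WT and -0.38 in KO. P2rx4, the larger part of the P2X sum, fell 1.28-fold with LPS in WT and 1.56-fold in KO in edgeR.

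The genes that flank the 10 were read from the same fit. Of 30 other protein-coding genes within 100000 bases of them, 25 were tested, and in KO against WT 9 were higher and 1 was lower, beside the 22.2% and 22.4% of all genes called. The guanine nucleotide exchange factor gene Arhgef17, which lies 5523 bases from P2ry6 on the same strand, had 10.1, 9.22 and 9.51 normalized counts in WT and 578, 611 and 620 in KO (log2 fold change 5.95, adjusted p = 4.2e-11, edgeR). P2ry6, between Arhgef17 and P2ry2, had a log2 fold change of -0.24 in KO against WT, whereas P2ry2 was at 1.21. The P2ry6 call was kept in only 1 of 6 removals of a library. I830077J02Rik, 15432 bases from Adora3 on the other strand, had 189, 183 and 207 normalized counts in WT, 90.4, 91.0 and 82.9 in WTLPS, 559, 554 and 537 in KO and 79.6, 66.7 and 75.8 in KOLPS. Like Adora3 it was higher in KO (log2 fold change 1.51, adjusted p = 2.1e-09, edgeR) and had a negative interaction (-1.76, adjusted p = 2e-06, edgeR), but with LPS it did not pass between genotypes (-0.25, adjusted p = 0.14, edgeR). Tctn3, whose start is 133 bases from that of Entpd1 on the other strand, was higher in KO (log2 fold change 0.76, adjusted p = 4.3e-05, edgeR) and fell with LPS in WT (-1.31, adjusted p = 6e-07, edgeR) and in KO (-1.62, adjusted p = 1.9e-08, edgeR). Med12l, which contains P2ry13 and P2ry14, was higher in KO (log2 fold change 1.65, adjusted p = 2.4e-06, edgeR) and had an interaction of -0.99 (adjusted p = 0.0099, edgeR). Its reads come from the opposite strand, and the strand setting of the counting is not given in the sources used here, although the annotated exons do not overlap. P2ry12, an ADP receptor gene 5390 bases from P2ry13, did not pass in KO against WT (log2 fold change 0.36, adjusted p = 0.13, edgeR), fell with LPS in WT (-0.58, adjusted p = 0.024, edgeR) and in KO (-1.94, adjusted p = 2.9e-06, edgeR), and had an interaction of -1.36 (adjusted p = 0.0079, edgeR).

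**Figure D5:**
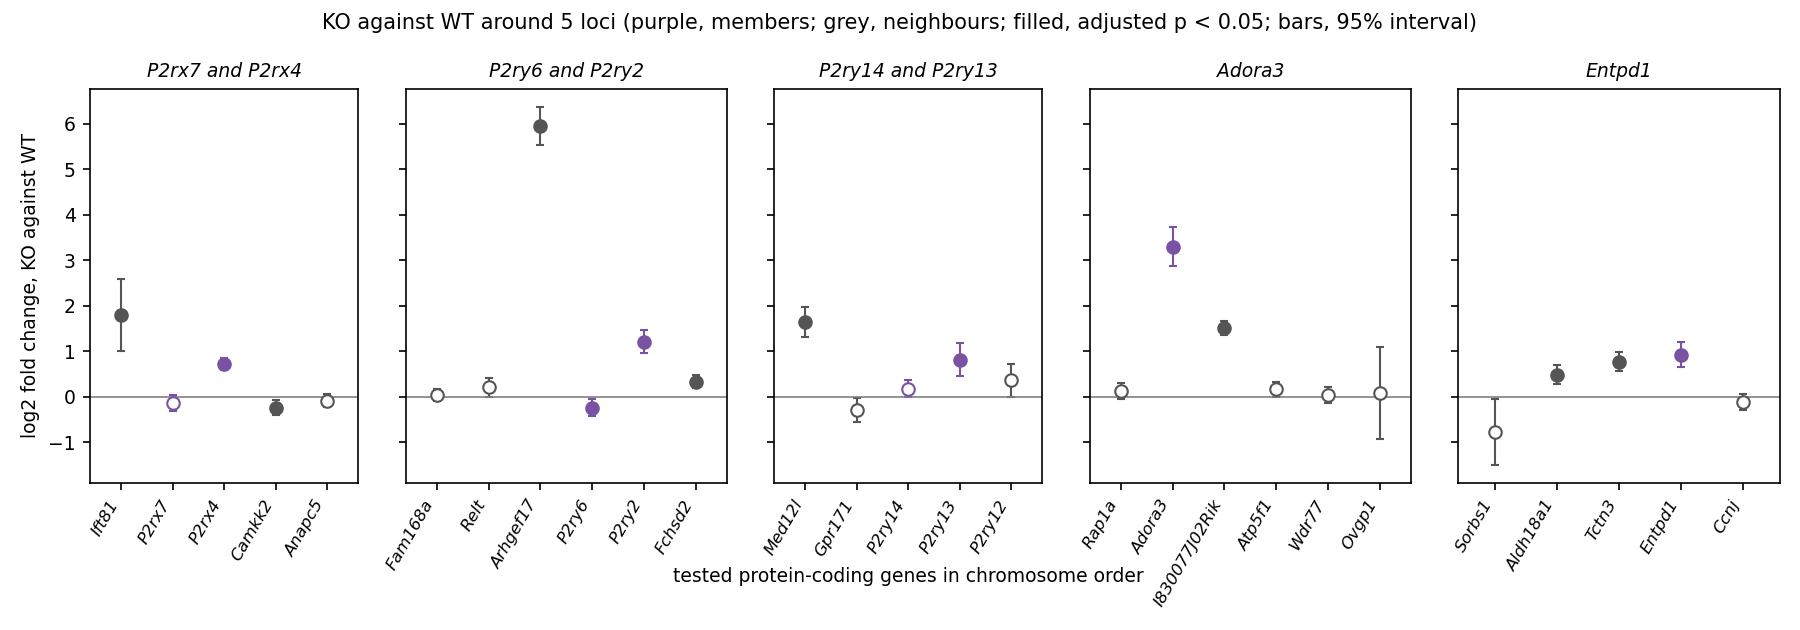
Log2 fold change in KO against WT, with bars of the 95% interval, of members of the set (purple) and the tested protein-coding neighbours (grey) in chromosome order at 5 loci, where filled points had an adjusted p under 0.05. Arhgef17 lies at 5.95 between flanking genes near 0, and in the pairs P2rx7 and P2rx4, P2ry6 and P2ry2, and P2ry14 and P2ry13 the second-named gene has the higher value.

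The other genes of the pathway were taken from 8 lists with 69 genes, of which 58 were tested. In WTLPS against WT 18 of them (31.0%) were higher and 26 (44.8%) lower, beside 30.0% and 30.2% of all genes. In KOLPS against KO 23 (39.7%) and 25 (43.1%) were, beside 33.6% and 33.9%, and in KO against WT 11 (19.0%) and 17 (29.3%), beside 22.2% and 22.4%. In KOLPS against WTLPS the counts were 18 (31.0%) and 18 (31.0%), beside 21.4% and 23.3%, and for the interaction 11 (19.0%) and 8 (13.8%), beside 8.70% and 8.75%. These shares are given as a description. Among the other P2Y receptors, the ADP receptor gene P2ry1 fell with LPS in WT (log2 fold change -1.18, adjusted p = 7.9e-07, edgeR) and less in KO (-0.46), with an interaction of 0.72 (adjusted p = 0.0074, edgeR), while the other gene tested on that list, P2ry12, had the negative interaction given above. Of 6 extracellular nucleotide enzymes tested, 2 were higher and 3 lower with LPS in WT and 3 and 2 in KO, and Cd38, an ectoenzyme that consumes NAD, rose by 2.62 in WT and 2.61 in KO on the log2 scale. Of 8 genes for adenosine and nucleoside handling, 2 were higher and 2 lower with LPS in WT and 3 and 3 in KO, and Pnp, which splits inosine and guanosine, rose by 2.58 and 2.61. Slc29a1, an equilibrative nucleoside transporter, fell by 0.23 in WT and 0.72 in KO on the log2 scale (interaction -0.49, adjusted p = 0.0035, edgeR). Of 6 tested genes for ATP release, 2 were higher and 4 lower with LPS in WT and 2 and 3 in KO. Gja1 (4.98 in WT, 5.25 in KO) and Calhm6 (4.21 in WT, 3.23 in KO) rose, and Calhm2 (-1.59 in WT, -2.17 in KO) and Lrrc8a (-0.65 in WT, -0.87 in KO) fell. Without LPS, Gja1 was near the floor, at 2.76, 0.839 and 5.19 normalized counts in WT and 0.897, 2.88 and 4.63 in KO. Panx1, encoding pannexin, fell with LPS in WT (-0.86, adjusted p = 0.00018, edgeR), was at -0.13 in KO (adjusted p = 0.43, edgeR), and was higher in KOLPS than in WTLPS (0.72, adjusted p = 0.0015, edgeR). Downstream of the receptors, 5 of 16 cyclic AMP signalling genes were higher and 7 lower with LPS in WT and 7 and 8 in KO, and of 17 genes of Gi and Gq signalling 6 were higher and 7 lower in WT and 7 and 6 in KO. The cyclic AMP-responsive transcriptional modulator gene Crem rose by 2.07 in KO on the log2 scale, with an interaction of 1.55 (adjusted p = 1.6e-06, edgeR), and the adenylyl cyclase gene Adcy3 was lower in KO than in WT (-2.42, adjusted p = 2e-07, edgeR). Rgs2, which limits Gq signalling, had an interaction of 1.82 (adjusted p = 1.9e-07, edgeR), and Rgs1, which limits Gi signalling, rose by 2.42 in WT and 3.19 in KO on the log2 scale.

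Across the 12 libraries, the expression pattern most like each of the 10 was found among at least 9337 genes with at least 100 normalized counts on average, by Pearson's r of log2(normalized count + 1). The nearest were Exoc3l4 for Adora2a, Fam102b for P2ry14 and Uggt1 for Entpd1 (r = 0.997 each), Tm6sf1 for P2rx7 (0.995), Stac2 for P2rx4 (0.992) and Arhgap26 for Adora2b (0.989). Cfp for P2ry2 (0.984), Grk5 for P2ry6 (0.982), 3110082I17Rik for Adora3 (0.976) and C3 for P2ry13 (0.941) followed. These values describe 12 points in 4 groups that share stimulus and genotype, and they are picked as the highest of all genes compared.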

How the data were processed

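RNA-seq libraries of 12 BMDC cultures were grouped by the sample labels as WT, WTLPS, KO and KOLPS. The authors aligned the reads with STAR and quantified 55335 genes on mm10 with RSEM. The processing notes give STAR 2.5.1, whereas the paper lists another version. Deposited for each gene were an expected count (estimated reads, not normalized), a TPM and an effective length. The labels describe a kit that depletes rRNA and the methods one that selects poly(A) RNA. Total expected counts were 12769773 to 16586334 per library.

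Expected counts were rounded, filtered with filterByExpr (14008 genes) and tested with edgeR 4.0.16 (TMM, glmQLFit and glmQLFTest, 1 fit of 12 libraries without covariates) in R 4.3.3, with Benjamini-Hochberg adjustment over all genes and a threshold of 0.05. A second call rule added fold cutoffs of 2, 1.3 and 1.5. The deposited TPM served to compare genes. Intervals are the estimate with normal 95% limits from its SE. Positions are from GENCODE M21, matching 54587 identifiers with version and 55154 without. Alternatives used DESeq2 1.42.0, limma 3.58.1 on log2(TPM + 1) or with 0.1 as the pseudocount, other scalings and filters, a replicate block, the 6 libraries of a comparison alone, and each replicate left out. Scripts were tested on simulated data.

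The 10 genes, the pathway lists and the markers were chosen with earlier results of these data known. Named are the 10 genes, Ctcf, up to 4 called pathway genes per list and comparison with at least 50 mean normalized counts, neighbours within 100000 bases, and the most alike gene. Neighbours with values, and the marker genes named, were chosen after their values were seen.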

Additional observations from a re-analysis of the deposited data

Results flagged for a closer look

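For 6 genes the LPS response differed between KO and WT by the interaction test in edgeR, with adjusted p-values under the threshold. The differences in log2 fold change were -0.29 for P2rx4, -0.59 for P2rx7, -0.89 for P2ry13, -1.08 for P2ry14, -1.63 for Adora3 and -0.74 for Entpd1. The LPS responses behind them were -0.36 in WT and -0.64 in KO for P2rx4, -1.08 and -1.66 for P2rx7, 0.63 and -0.26 for P2ry13, 1.56 and 0.47 for P2ry14, -1.62 and -3.25 for Adora3, and -0.80 and -1.55 for Entpd1. Only the difference of P2ry14 passed in all 21 settings tried. That of P2rx7 passed in 18 of 21, Entpd1 in 12, P2ry13 in 9, P2rx4 in 4, and Adora3 in 13 of 20. No test for samples far from their group was run, since groups of 3 are too small for it. Counts of replicate pairs were compared by chi-square per degree of freedom, which is larger where libraries differ more. Pairs with replicate 2 gave 81.49 and 76.74 in WTLPS (29.48 for the other pair) and 28.54 and 29.99 in KOLPS (8.46). WT pairs gave 3.26 to 4.64 and KO pairs 1.69 to 1.9. Without KOLPS replicate 2, interactions over all genes numbered 1756 higher and 2013 lower, in place of 1218 and 1225. Without WTLPS replicate 2 they numbered 947 and 928.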

How the results depend on the processing

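Of 845 log2 fold changes of the 10 genes recomputed under an alternative, 758 kept their direction and side of the threshold, 67 lost the call, 12 gained one and 8 turned direction. P2ry2 on LPS in WT turned to -0.27 with library totals, -0.023 in limma on log2(TPM + 1) and -0.026 on log2(TPM + 0.1). P2ry6 turned to 0.007 for the interaction with library totals. Leaving out each replicate gave ranges of -0.195 to 0.071 for P2ry2 on LPS in KO, -0.35 to 0.10 for P2ry13 and -0.02 to 0.34 for Entpd1 in KOLPS against WTLPS. None of these was called in the main setting, and the cause was not tested.

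With the fold cutoff, which is stricter by construction, genes lower numbered 2 in WTLPS against WT, 3 in KOLPS against KO, 0 in KO against WT and 2 in KOLPS against WTLPS, and genes higher numbered 1 in KOLPS against KO, as they did in both limma fits (1 and 1). Genes lower in KO against WT numbered 2 with library totals and in both limma fits (2 and 2), 0 with at least 10 counts in every library, a filter that drops Adora3, and 0 to 1 with a replicate left out. Interactions called lower numbered 2 in limma on log2(TPM + 1), 1 on log2(TPM + 0.1), and 1 to 6 with a replicate left out. The cause was not tested.

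Whether replicate numbers pair the libraries is not known. Deviations of same-numbered libraries from their group means correlated at -0.286 to 0.112. Of 6 libraries, 2 correlated best with their own number in WTLPS against WT, 1 in KOLPS against WTLPS, and 0 in KOLPS against KO and in KO against WT. With groups of 3, and replicate 2 differing most in WTLPS and KOLPS, this check cannot exclude a shared mouse or culture. With the replicate block, genes lower in KO against WT numbered 0 (P2ry6, adjusted p = 0.065), and interactions called lower numbered 4 in place of 6 (P2rx4, adjusted p = 0.08, and P2ry13, adjusted p = 0.065).

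Over all genes, upper quartile scaling put the median LPS change at -0.15 in WT and -0.16 in KO, with 3401 genes higher and 5272 lower in WT and 3955 and 5638 in KO. Library totals gave an interaction median of 0.12, with 1864 genes higher and 692 lower in place of 1218 and 1225, and 2342 higher and 4107 lower in KO against WT in place of 3110 and 3131. Adora3 was at 3.25 normalized counts in its lowest WTLPS library, which limits the precision of its LPS response in WT.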
